A study of Homo sapiens with 18 samples.

Results

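The collagen chain genes were taken as every gene of the mRNA-seq table whose symbol has the form COL, a number, A and a number, which gave 43 of 22336 genes. Around their start sites, regulatory regions were collected when the region's centre lay within 50 kb, with coordinates in hg19. This gave 160 of 94527 enhancers, 96 of 40995 ATAC-seq peaks in TSA-treated cells and 82 of 38813 ATAC-seq peaks in vehicle-treated cells. All measurements came from LNCaP, an established human prostate cancer cell line that grew out of a lymph node metastasis and expresses the androgen receptor. Trichostatin A (TSA), an inhibitor of histone deacetylases, was given at 100 ng/ml for 24 h, and vehicle was DMSO. ATAC-seq was performed on 3 TSA-treated and 3 vehicle-treated cultures, and mRNA-seq on 3 TSA-treated, 3 vehicle-treated and 3 untreated cultures. WHG-STARR-seq, which tests random fragments of human genomic DNA for the ability to drive their own transcription, was performed with 2 output libraries, harvested 72 h after electroporation, and 1 input library. No genotype was altered in any group, and the fragments were tested on plasmids, outside their own chromatin. The authors kept cells in phenol red free medium with charcoal-stripped serum for 72 h before TSA or vehicle, and from electroporation until harvest.

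The files used here hold 1 value per condition or per comparison, with no value per library. Depth per library and replicate error are therefore unknown here, and no difference between TSA and vehicle was tested. The authors' own comparison columns were not used. The RNA level of a gene is the authors' average over libraries in log2 CPM (counts scaled to library size), so it is neither a TSA nor a vehicle level, and whether the untreated libraries entered it is not stated in the sources used here. The average carried the luminal prostate markers of LNCaP, with 8 of 8 at 1 CPM or more, from KLK2 at 4.41 to FOLH1 at 11.17 log2 CPM. Of fibroblast markers, 1 of 6 reached 1 CPM (LUM, 1.87 log2 CPM), while DCN stood at -2.21, POSTN at -2.33 and FAP at the lowest value of the table. Endothelial markers reached 1 CPM in 2 of 4 cases (VWF and KDR) and basal markers in 1 of 4 (KRT5, 6.23 log2 CPM).

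Collagens are the triple-helical proteins of the extracellular matrix. Each chain is the product of its own gene, and chains assemble in the endoplasmic reticulum as homotrimers or in fixed combinations of different chains. The fibrillar collagens form the banded fibrils of connective tissue, the collagen IV chains form the sheet under epithelia, and the fibril-associated, beaded filament, transmembrane and multiplexin collagens link or decorate these structures. Fibroblasts are the usual source of fibrillar collagens in a tumour, and epithelial cells lie on the collagen IV network.

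The 6 collagen IV genes lie in head-to-head pairs, each pair transcribed in opposite directions from 1 shared interval. These intervals are shown first because each pair had its ATAC-seq peak there. The start sites of COL4A1 and COL4A2 were 100 bases apart on chromosome 13, those of COL4A4 and COL4A3 418 bases apart on chromosome 2, and those of COL4A6 and COL4A5 365 bases apart on chromosome X, by the outermost start sites of GENCODE basic transcripts. The sequences are from GRCh37, plus strand, whole for the first pair and the middle 300 bases for the others. Capitals mark the GC box (GGGCGG), the CCAAT box (CCAAT) and the TATA box (TATAAA) on either strand.
COL4A1-COL4A2, chr13:110959505-110959604: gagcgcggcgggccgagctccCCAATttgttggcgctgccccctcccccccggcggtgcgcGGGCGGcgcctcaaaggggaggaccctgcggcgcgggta
COL4A4-COL4A3, chr2:228028981-228029280: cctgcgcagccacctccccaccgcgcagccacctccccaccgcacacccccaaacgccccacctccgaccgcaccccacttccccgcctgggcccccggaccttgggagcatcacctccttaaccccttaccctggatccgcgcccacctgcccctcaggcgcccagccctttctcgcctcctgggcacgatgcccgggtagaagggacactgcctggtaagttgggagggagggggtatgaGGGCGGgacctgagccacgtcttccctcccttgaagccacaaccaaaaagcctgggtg
COL4A6-COL4A5, chrX:107682735-107683034: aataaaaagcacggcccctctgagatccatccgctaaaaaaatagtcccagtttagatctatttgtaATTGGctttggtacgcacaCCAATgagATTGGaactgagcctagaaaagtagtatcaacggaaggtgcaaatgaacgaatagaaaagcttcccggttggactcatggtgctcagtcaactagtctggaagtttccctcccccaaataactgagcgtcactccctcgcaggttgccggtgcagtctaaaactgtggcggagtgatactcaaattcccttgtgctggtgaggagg
The COL4A1-COL4A2 interval was 78.0% G and C and held 1 GC box and 1 CCAAT box, and the COL4A4-COL4A3 stretch was 68.3% G and C with 1 GC box. The COL4A6-COL4A5 stretch was 47.0% G and C and held 3 CCAAT boxes and no GC box. No TATA box was found in these stretches. Among 27305 promoters of 300 bases from RefSeq (GRCh38.p14), 44.6% held a GC box, 35.7% a CCAAT box and 12% a TATA box. A match is a description of the letters and does not show that a factor binds.

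The collagen chain genes had a lower median level than genes in general. An average of at least 1 CPM was reached by 25 of 43 collagen genes (58.1%), against 66.3% of all genes of the table. The median level was 0.85 log2 CPM for the collagen genes and 2.94 for all genes. Per kb of the longest basic transcript, the median was 0.267 CPM for the collagen genes and 3.03 for all genes with a start site. Of the 43, 6 had 32 CPM or more, where 29.7% of all genes do, and 18 (41.9%) lay below 0.5 CPM, against 28% of all genes. The 5 highest genes held 84.0% of the summed collagen CPM of 1025. COL8A1 alone stood at the lowest value of the table, -2.62 log2 CPM, which it shared with 2018 other genes.

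**Figure D1:**
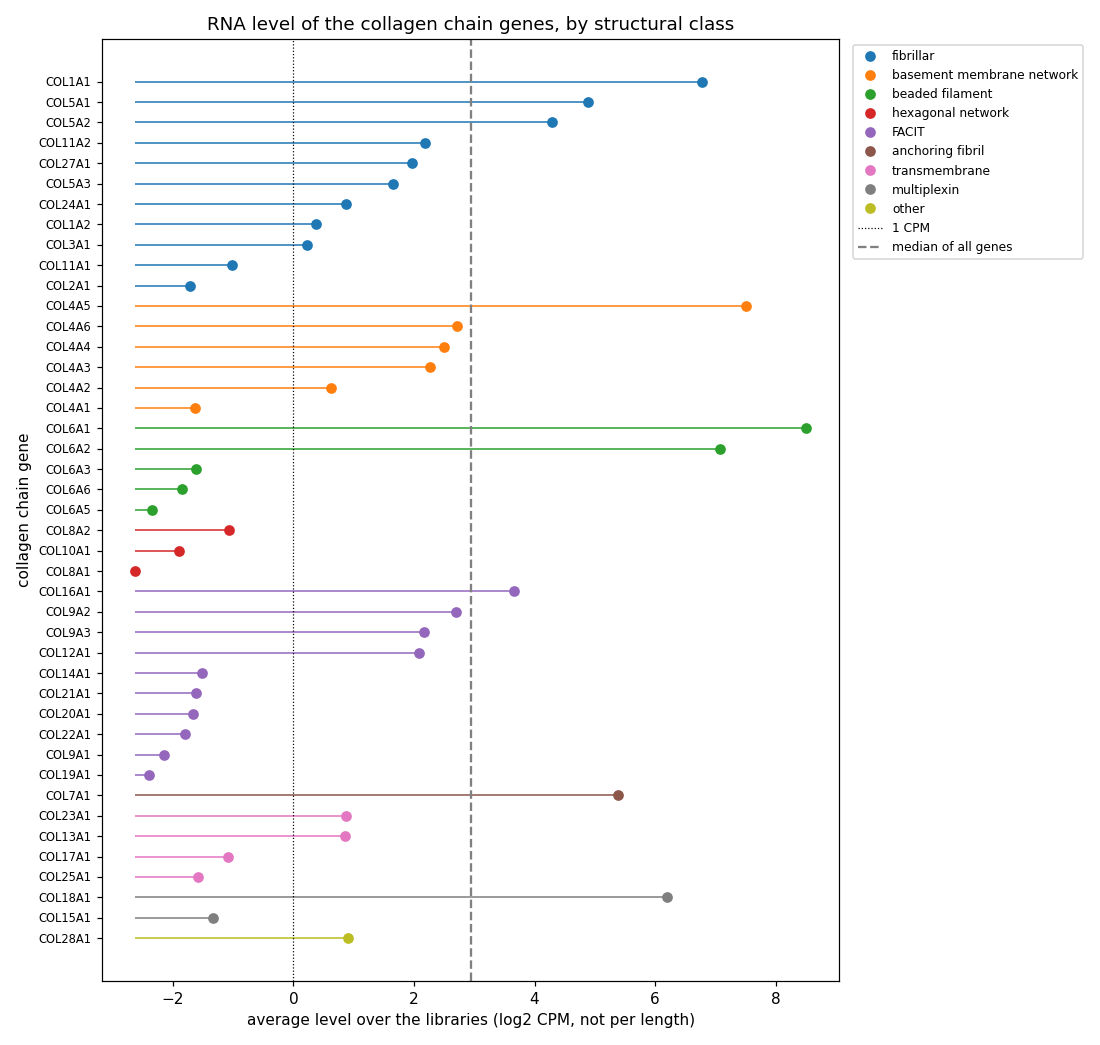
Average RNA level of the 43 collagen chain genes in log2 CPM (x axis) by structural class (colour), drawn from the lowest value of the table; the dotted line is 1 CPM and the dashed line the median of all genes. COL6A1, COL4A5, COL6A2, COL1A1, COL18A1 and COL7A1 reach 32 CPM or more, and the hexagonal network genes all lie below 1 CPM.

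Levels of different genes are comparable only per length, so the order of genes is given in CPM per kb of the longest basic transcript. COL6A1 was highest at 86.0 CPM per kb, followed by COL6A2 at 39.1, COL4A5 at 27.9, COL1A1 at 18.4 and COL18A1 at 11.1 CPM per kb. COL7A1 followed at 4.49, COL5A1 at 3.48, COL5A2 at 2.87, COL16A1 at 2.33, COL9A2 at 2.26 and COL9A3 at 1.80 CPM per kb. With no spread over samples, neighbours in this order cannot be told apart. With the union of exons as length, COL9A2 stood before COL16A1, and the 10 highest genes were the same 10.

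Among the 11 fibrillar genes, 9 reached 1 CPM. COL1A1, which encodes the chain present in every type I collagen molecule, stood at 6.77 log2 CPM (109 CPM). Its partner COL1A2, which encodes the other chain of type I collagen, stood at 0.37 log2 CPM (1.29 CPM), so that the average per length was 18.4 CPM per kb for COL1A1 and 0.255 for COL1A2. COL3A1, the type III collagen of skin and vessel walls, stood at 0.23 log2 CPM. The type V chains, which initiate and limit the growth of type I fibrils, stood at 4.88 (COL5A1), 4.29 (COL5A2) and 1.66 (COL5A3) log2 CPM. COL11A2 and COL11A1, chains of the cartilage fibril, stood at 2.18 and -1.02, and COL2A1, the main cartilage collagen, at -1.71 log2 CPM. COL27A1 and COL24A1, which encode fibrillar collagens with shortened or interrupted helices, stood at 1.96 and 0.87 log2 CPM.

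The collagen VI genes were split in the same way. COL6A1 (8.5 log2 CPM) and COL6A2 (7.07 log2 CPM) both lie on chromosome 21 and encode chains that assemble with a further chain into beaded microfibrils. The genes for that chain were all below 1 CPM, with COL6A3 at -1.62, COL6A6 at -1.84 and COL6A5 at -2.34 log2 CPM. In CPM per kb this was 86.0 for COL6A1 and 39.1 for COL6A2, against 0.0308 for COL6A3. COL6A3 averaged only 0.324 CPM, where the lowest value of the table was 0.162 CPM, so the size of this gap is uncertain.

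In the collagen IV network, 5 of 6 genes reached 1 CPM, and the genes of 2 pairs differed in average level. With no spread over samples this was not tested, and COL4A1 and COL4A2 averaged only 0.324 and 1.53 CPM. COL4A5 stood at 7.51 log2 CPM and COL4A6, transcribed away from it, at 2.71, or 27.9 against 0.968 CPM per kb. COL4A3 and COL4A4, whose chains join COL4A5 in the basement membrane of the kidney glomerulus, stood at 2.27 and 2.50 log2 CPM, or 0.602 and 0.567 CPM per kb. COL4A2 stood at 0.62 and COL4A1 at -1.63 log2 CPM, although these chains make up the collagen IV found under most epithelia.

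The remaining classes had few expressed members. None of the 3 hexagonal network genes reached 1 CPM, with COL8A2 at -1.07, COL10A1, the marker of hypertrophic cartilage, at -1.89 and COL8A1 at -2.62 log2 CPM. Of the 10 fibril-associated (FACIT) genes, 4 reached 1 CPM, namely COL16A1 at 3.66, COL9A2 at 2.69, COL9A3 at 2.16 and COL12A1 at 2.08 log2 CPM. The remaining chain gene of collagen IX, COL9A1, stood at -2.15 log2 CPM. COL7A1, which forms the anchoring fibrils that tie the epidermis to the dermis, stood at 5.38 log2 CPM. COL18A1, a proteoglycan collagen of basement membranes and the precursor of endostatin, stood at 6.19 log2 CPM, and the other multiplexin, COL15A1, at -1.33. Among transmembrane collagens, COL23A1 stood at 0.87, COL13A1 at 0.85, COL17A1 of the hemidesmosome at -1.09 and COL25A1 at -1.59 log2 CPM. COL28A1 stood at 0.90 log2 CPM.

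Of 41 listed genes that make or bind collagen, 33 reached 1 CPM, against 25 of the 43 chain genes and 66.3% of all genes. Their median of 2.38 log2 CPM lay below the 2.94 of all genes. All 14 genes of hydroxylation and glycosylation reached 1 CPM, with P4HB, a subunit of prolyl 4-hydroxylase, at 9.85 and PPIB, a prolyl isomerase of the endoplasmic reticulum, at 8.71 log2 CPM. MIA3, which loads collagen into transport vesicles, stood at 9.09, whereas SERPINH1, the collagen chaperone HSP47, stood at -0.47 log2 CPM. Of the cross-linking oxidases 3 of 5 reached 1 CPM, the highest being LOXL3 at 2.38 log2 CPM. Of the receptors 7 of 10 reached it, led by ITGB1, the shared beta chain of the collagen-binding integrins, at 9.24 and by DDR1, a collagen receptor kinase, at 8.16 log2 CPM.

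Chromatin at the start sites was then compared between TSA and vehicle. A gene was counted when a peak shared at least 1 base with the window from 1000 bases upstream to 100 bases downstream of any of its start sites. Peaks come from Fseq, which gives each peak a density score, and were called once per condition on pooled libraries. How scores of the separate lists were scaled to each other is not stated in the sources used here. A start-site peak in the TSA list but not in the vehicle list was found for 4 of 43 collagen genes (9.30%), against 5.73% of all genes with a start site. No collagen gene had one in the vehicle list only, where the background was 1.33%. Peaks in both lists were found for 20 of 43 genes (46.5%), against 54.8% of all genes, and 19 genes had none in either list.

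The genes with a start-site peak in the TSA list only were COL4A1 and COL4A2, COL8A1 and COL11A1. COL4A1 and COL4A2 had 1 peak over their shared interval, with a score of 0.0450, higher than 24.3% of the TSA list, which began at 0.0377. Around this pair the TSA list held 4 peaks within 50 kb, at scores from 0.0406 to 0.0450, and the vehicle list held none. COL8A1 had a TSA peak of 0.0809 around its first start site and another of 0.0447 at 6.75 kb downstream, and neither met a vehicle peak. COL11A1 had a TSA peak of 0.113 that ran from upstream of the start into the gene. It shared bases with a vehicle peak of 0.0695 that was centred 1.62 kb inside the gene and did not reach the start-site window, so at COL11A1 the lists differ in the extent of a peak and not in its presence. COL8A2 had a TSA-only peak of 0.0400 at its most upstream start site, besides a shared peak at another start site. COL4A1, COL8A1 and COL11A1 had RNA averages below 1 CPM and COL4A2 had 0.62 log2 CPM.

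**Figure D2:**
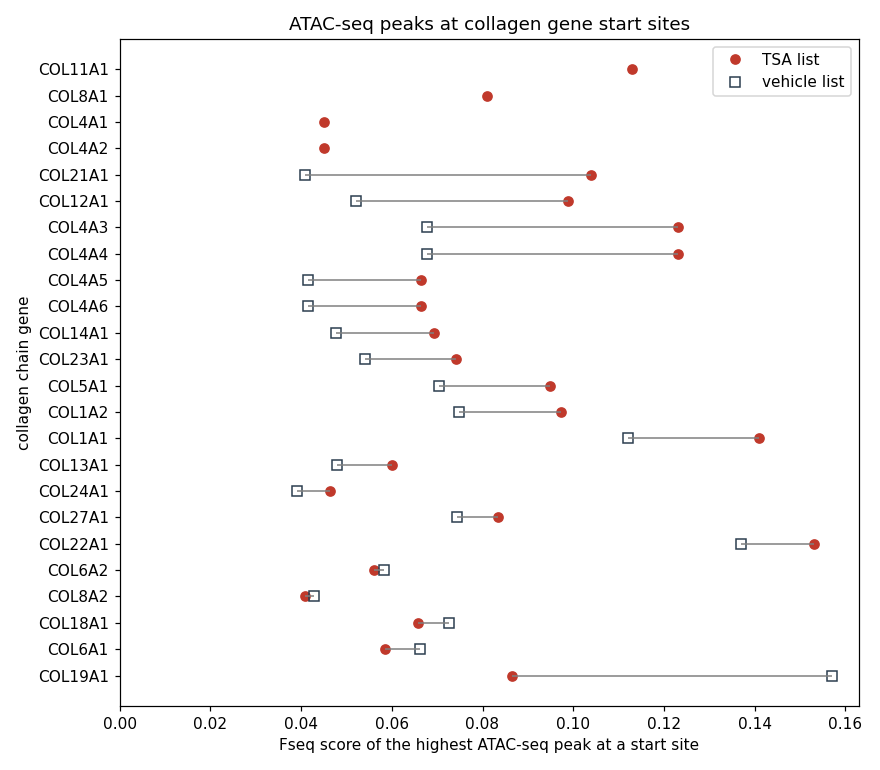
Fseq score (x axis, no unit) of the highest ATAC-seq peak at a start site for the 24 collagen genes that had one, with the TSA list as filled circles and the vehicle list as open squares; genes with no square had no vehicle peak in the window. The TSA score was more than 2 times the vehicle score at COL21A1 (0.104 and 0.0409), and COL19A1 had the lower score in TSA (0.0866 and 0.157).

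Where both lists had a start-site peak, the 20 genes shared 18 loci, since paired collagen IV genes used 1 peak each. The score was higher in the TSA list at 13 of these 18 loci (72.2%), and over all genes with peaks in both lists it was higher in the TSA list for 75.8%. The median ratio of TSA over vehicle score was 1.26 at the collagen loci and 1.15 over all genes. The ratio was highest at COL21A1, with scores of 0.104 in TSA and 0.0409 in vehicle (ratio 2.54). COL12A1 followed with 0.0989 in TSA and 0.0521 in vehicle (1.90), COL4A3 and COL4A4 with 0.123 and 0.0678 (1.81), and COL4A5 and COL4A6 with 0.0664 and 0.0415 (1.60). All 3 head-to-head collagen IV intervals thus had either a TSA peak alone or the higher score in TSA. COL4A5 is also among the genes of highest RNA level. At others of that level the scores were 0.0586 in TSA and 0.0663 in vehicle at COL6A1, 0.0560 and 0.0582 at COL6A2, 0.0657 and 0.0727 at COL18A1, and 0.141 and 0.112 at COL1A1. COL19A1, a collagen associated with basement membrane zones, had the opposite direction to most, with 0.0866 in TSA and 0.157 in vehicle (ratio 0.55). It also had 2 peaks within 50 kb that were found in vehicle alone. The vehicle list began at 0.0390. The vehicle score was higher than 7.62% of that list at COL21A1 and 9.87% at COL4A5 and COL4A6. Other shared peaks within 50 kb of COL21A1 starts had ratios of 1.26, 1.26, 0.965 and 0.51. No error could be put on these ratios from pooled scores.

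Promoters from the ends of this range are shown for COL21A1, COL12A1 and COL19A1. COL11A1 is shown as well, where only the TSA peak reached the start-site window, although a vehicle peak overlapped it inside the gene. Sequences are from RefSeq (GRCh38.p14), from 250 bases before to 50 bases after the start, 5′ to 3′ along the gene. Of the 43 genes, 31 matched the promoter table. Capitals mark the same boxes as above. An exact match of each was found on its own chromosome in GRCh37, and overlaps the TSA peak at the start site. Further copies were not counted.
COL11A1, TSA list only: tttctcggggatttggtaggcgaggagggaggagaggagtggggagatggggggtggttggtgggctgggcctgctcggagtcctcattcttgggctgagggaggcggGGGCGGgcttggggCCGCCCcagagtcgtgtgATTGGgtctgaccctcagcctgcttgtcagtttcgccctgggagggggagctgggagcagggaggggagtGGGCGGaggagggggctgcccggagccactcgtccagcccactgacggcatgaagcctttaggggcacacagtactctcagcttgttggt
COL21A1, highest ratio: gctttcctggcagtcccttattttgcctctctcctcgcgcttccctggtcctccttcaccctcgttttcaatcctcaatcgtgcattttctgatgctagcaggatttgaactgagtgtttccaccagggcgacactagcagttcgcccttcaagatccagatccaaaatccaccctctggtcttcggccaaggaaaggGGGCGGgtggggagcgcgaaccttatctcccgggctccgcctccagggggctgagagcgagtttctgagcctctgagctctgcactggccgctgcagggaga
COL12A1, second ratio: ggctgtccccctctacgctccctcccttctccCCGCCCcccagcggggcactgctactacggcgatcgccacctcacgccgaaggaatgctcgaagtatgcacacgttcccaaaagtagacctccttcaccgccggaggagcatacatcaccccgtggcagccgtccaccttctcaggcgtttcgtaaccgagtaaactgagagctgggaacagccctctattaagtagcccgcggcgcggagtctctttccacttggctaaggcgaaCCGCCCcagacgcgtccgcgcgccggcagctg
COL19A1, higher in vehicle: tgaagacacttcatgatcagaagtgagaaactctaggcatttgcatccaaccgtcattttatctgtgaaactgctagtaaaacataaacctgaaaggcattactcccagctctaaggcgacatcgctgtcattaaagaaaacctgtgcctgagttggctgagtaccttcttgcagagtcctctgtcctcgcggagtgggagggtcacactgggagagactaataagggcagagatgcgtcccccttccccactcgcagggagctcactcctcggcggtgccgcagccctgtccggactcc
The COL11A1 promoter held 3 GC boxes and 1 CCAAT box, the COL12A1 promoter 2 GC boxes and the COL21A1 promoter 1. None of these boxes was found at COL19A1. The CpG count was 12 at COL11A1, 14 at COL21A1, 29 at COL12A1 and 11 at COL19A1, against a median of 14 over the RefSeq promoters.

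RNA level and a start-site peak did not go together for every gene. Of the 18 collagen genes below 1 CPM, 5 had a peak in both lists and 3 in the TSA list only. Over all genes below 1 CPM, 14.2% had a peak in both lists and 5.48% in the TSA list only. The 5 genes were COL8A2, COL14A1, COL19A1, COL21A1 and COL22A1, and all but COL8A2 are FACIT genes. COL22A1, a collagen of tissue junctions, had the highest TSA score of the collagen start sites, 0.153, and 0.137 in vehicle, at -1.79 log2 CPM. Conversely, 9 of the 25 genes at or above 1 CPM had no peak at a start site (36.0%), against 18.6% of all genes at that level. These were COL3A1, COL5A2, COL5A3, COL7A1, COL9A2, COL9A3, COL11A2, COL16A1 and COL28A1. COL5A2 and its neighbour COL3A1 had no peak of either list within 50 kb.

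Over the whole 50 kb on either side, start-site peaks included, 33 of the 96 TSA peaks shared no base with the vehicle list. That is 34.4% (95% exact binomial interval 25 to 44.8%, counting error only), against 25.8% of TSA peaks near any gene and 32.8% of all TSA peaks. In the other direction, 17 of 82 vehicle peaks shared no base with the TSA list, or 20.7% (12.6 to 31.1%), against 20.2% near any gene and 28.8% of all. Peaks found in TSA alone were weak, with a median score of 0.0445, against 0.0768 for TSA peaks that met a vehicle peak. Peaks in vehicle alone were as weak, at 0.0440. Over all peaks the medians were 0.0451 in TSA alone and 0.0465 in vehicle alone. The highest TSA-only peak was the COL8A1 start-site peak, followed by one of 0.0671 at 15 kb upstream of COL9A1 and one of 0.0590 at 17.2 kb upstream of COL5A3. The highest peak in vehicle alone, 0.0788, lay 14.1 kb downstream of a COL10A1 start in an intron of NT5DC1. Collagen genes with 3 or more TSA-only peaks were COL4A1 and COL4A2 with the same 4, and COL9A3, COL11A2, COL16A1 and COL22A1 with 3 each.

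WHG-STARR-seq enhancers were found near every collagen gene. All 43 had at least 1 within 50 kb, where the background was 96.0% of genes. The median was 4 enhancers per collagen gene and 4 per gene over all genes. COL18A1 had the most, 14, followed by COL16A1 with 8 and by COL8A2, COL9A3, COL10A1 and COL14A1 with 7 each. Of the 160 enhancers, 6 lay near more than 1 collagen gene.

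**Figure D3:**
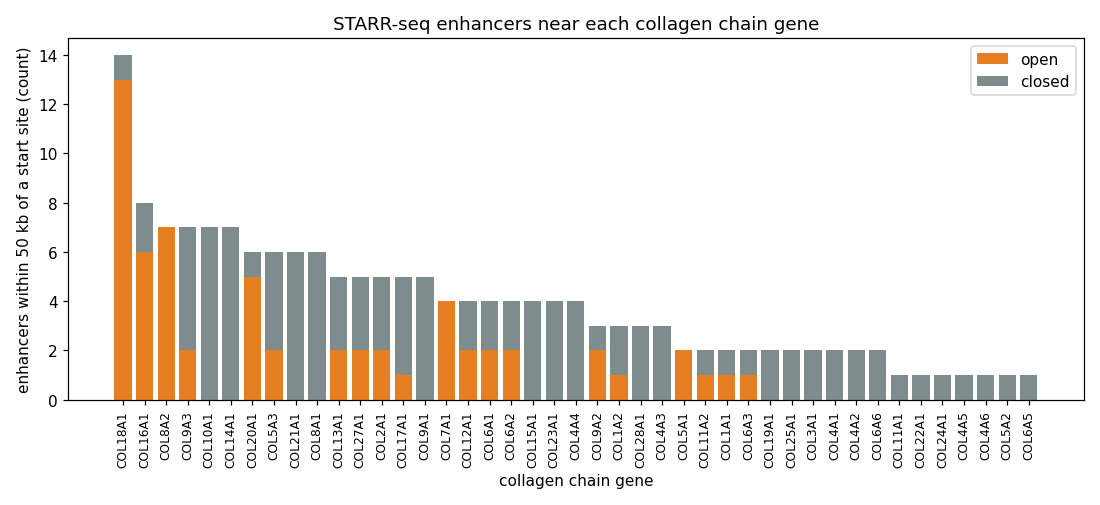
Number of STARR-seq enhancers within 50 kb of a start site (y axis) of each of the 43 collagen chain genes (x axis), split into open (orange) and closed (grey). COL18A1 has 14 enhancers, 13 of them open, whereas the 7 of COL10A1 and the 7 of COL14A1 are all closed.

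Pooled over enhancers, each counted once, those near collagen genes overlapped a DNase I site more often than those near any gene. Open enhancers overlap a DNase I site of LNCaP cells and closed enhancers do not. Near the collagen genes 60 were open and 100 closed, an open share of 37.5% (95% exact binomial interval 30.0 to 45.5%), against 20.4% near any gene and 12.7% of all 94527. The interval treats enhancers as independent and covers counting error only. Open is defined here by DNase I alone, and 44 of the 60 met no ATAC-seq peak of either list. COL18A1 alone contributed 13 of the 60, and without it the share was 32.2%. The split by distance uses unlike measures. Collagen enhancers were measured from the nearest collagen start, and the background from the nearest start of any gene. Collagen enhancers beyond 10 kb thus include some at promoters of other genes, such as COX7A2, TRAPPC3 and UQCRC1. Whether the difference holds away from start sites was therefore not tested. Within 1 kb of a start, 6 of 8 collagen enhancers were open, against 75.6% near any gene. From 1 to 10 kb the share was 44.4% (16 of 36), against 20.4%, and beyond 10 kb it was 32.8% (38 of 116), against 11%.

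The open enhancers were gathered at a subset of genes. At least 1 was found near 20 of 43 collagen genes, or 46.5%, against 56.5% of all genes. The median was 0 open enhancers per collagen gene and 1 per gene over all genes. Counted by gene, the order is thus opposite to that of the pooled share. Besides COL18A1, all 7 near COL8A2, all 4 near COL7A1, both near COL5A1, 6 of 8 near COL16A1 and 5 of 6 near COL20A1 were open. None of the 7 enhancers near the collagen IV genes was open. An open enhancer lay near 15 of the 25 genes at 1 CPM or more and near 5 of the 18 below it. Over all genes these shares were 64.8% and 39.3%.

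Enhancer strength was given by MACS2 as the fold of output over input. Near the collagen genes it ranged between 1.65 and 8.92, with a median of 2.78, against 3.02 near any gene and 3.08 over all enhancers. Open collagen enhancers had a median of 2.52 and closed ones 2.88, the same order as among all enhancers (2.78 open, 3.10 closed). A fold of 5 or more was reached by 7 of 160 (4.38%), against 7.14% near any gene. Fragments at the summit were recovered from the fold and the p-value of each call, and numbered between 22 and 306, with a median of 57.5.

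The sequences of 5 strong enhancers are shown as 200 bases around the summit, from GRCh37, plus strand. Capitals mark AP-1 sites (TGANTCA) on either strand, and FOX (TGTTTAC), ETS (CCGGAAG) and GC box (GGGCGG) letters were searched as well.
COL18A1, open, chr21:46792990-46793189: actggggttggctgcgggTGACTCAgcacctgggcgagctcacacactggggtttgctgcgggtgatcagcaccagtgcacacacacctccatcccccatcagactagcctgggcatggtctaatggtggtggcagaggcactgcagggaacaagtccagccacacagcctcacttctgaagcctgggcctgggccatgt
COL16A1, open, chr1:32219213-32219412: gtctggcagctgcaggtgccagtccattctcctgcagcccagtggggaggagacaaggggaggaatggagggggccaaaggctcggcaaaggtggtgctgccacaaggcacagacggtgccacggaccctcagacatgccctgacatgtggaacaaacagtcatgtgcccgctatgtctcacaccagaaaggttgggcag
COL17A1, open, chr10:105880606-105880805: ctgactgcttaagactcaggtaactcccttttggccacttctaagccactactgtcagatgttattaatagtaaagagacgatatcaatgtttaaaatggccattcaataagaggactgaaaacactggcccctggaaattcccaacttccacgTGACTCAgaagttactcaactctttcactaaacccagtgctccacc
COL4A5 and COL4A6, closed, chrX:107725523-107725722: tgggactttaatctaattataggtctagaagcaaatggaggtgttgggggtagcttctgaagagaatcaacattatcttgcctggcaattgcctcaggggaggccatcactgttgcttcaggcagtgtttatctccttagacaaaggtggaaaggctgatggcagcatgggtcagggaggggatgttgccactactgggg
COL21A1, closed, chr6:56120656-56120855: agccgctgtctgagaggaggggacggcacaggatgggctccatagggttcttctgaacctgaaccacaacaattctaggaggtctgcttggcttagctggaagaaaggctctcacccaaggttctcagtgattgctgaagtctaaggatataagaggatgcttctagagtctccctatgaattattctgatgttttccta
The windows near COL18A1 and COL17A1 held 1 AP-1 site each, and no searched motif was found in the other 3. Cut into 8 words of 24 bases, the windows near COL18A1, COL16A1, COL17A1 and COL21A1 had every word once in the genome. In the COL4A5 window 4 of 8 words occurred once and the most frequent 124 times. The authors discarded reads that aligned at more than 1 locus, and the part of repeated words in this fold was not tested.

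**Figure D4:**
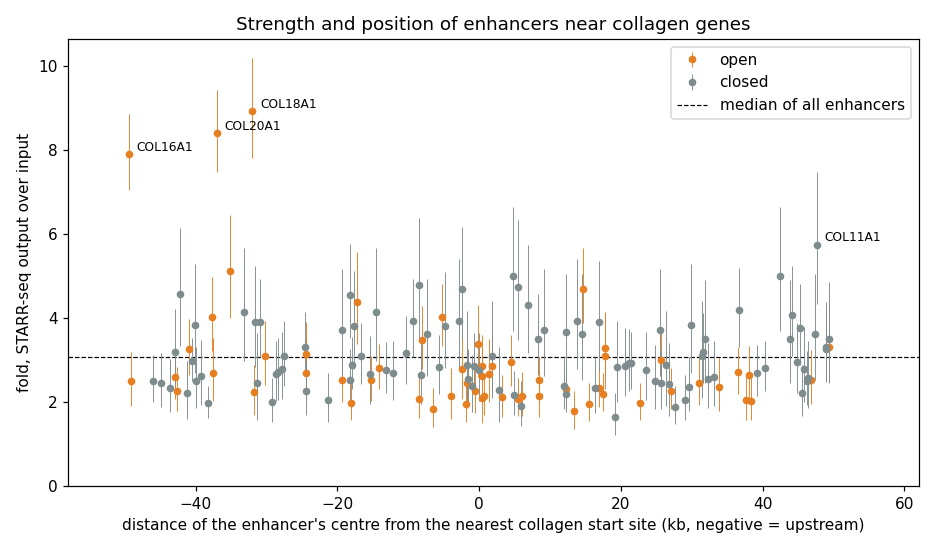
Fold of STARR-seq output over input (y axis) of the 160 enhancers against the distance of their centre from the nearest collagen start site (x axis, kb, negative is upstream), open in orange and closed in grey; bars are 95% exact Poisson intervals of the output fragments. The 3 highest, near COL18A1, COL20A1 and COL16A1, are open and lie over 30 kb upstream, while the dashed line marks the median of all enhancers at 3.08.

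The strongest enhancer of the set lay on chromosome 21 at 46792694 to 46793531, in intergenic sequence 32 kb upstream of COL18A1. It was open and gave 227 output fragments against 24.6 scaled input fragments, a fold of 8.92 (95% exact Poisson interval 7.80 to 10.2, counting error only). The next lay 37 kb upstream of COL20A1, in an intron of NKAIN4, with 295 fragments against 34.2 (fold 8.41, 7.48 to 9.42). Another lay 49.4 kb upstream of COL16A1, in an intron of ADGRB2, with 306 against 37.8 (fold 7.91, 7.05 to 8.85). It met an ATAC-seq peak in the TSA list alone, with a score of 0.0402, higher than 9.98% of that list. A further open enhancer, 35.2 kb upstream of COL17A1, had a fold of 5.12 (4.01 to 6.45) and lay under a peak of 0.306 in TSA and 0.242 in vehicle that covered the start of SFR1. Which genes these enhancers act on was not measured. Another open one, with a fold of 4.70, lay inside COL27A1.

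Closed enhancers are given here for a selection and not by rank. Among the stronger ones were those in introns of COL14A1, 4.83 kb from a start, and of COL4A5, 42.4 kb from it, with 46 output fragments each against 8.4 scaled input fragments (fold 5.00, 3.69 to 6.64). The value of 8.4 is a floor and not a local measurement, since 23 of the 160 enhancers, all closed, share it. The folds and intervals of COL14A1, COL4A5 and COL21A1 rest on this floor. Others lay near COL21A1 and in COL1A2, each with 44 fragments, at folds of 4.79 for COL21A1 and 4.75 for COL1A2, where the site lay 5.5 kb into the gene. These closed enhancers rested on fewer fragments than the strongest open ones, and their intervals overlapped each other.

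Enhancers and ATAC-seq peaks overlapped at few sites. Of the 60 open enhancers, 10 shared bases with peaks of both lists (16.7%, exact binomial interval 8.29 to 28.5%), against 39.2% of open enhancers near any gene. Another 6 met a TSA peak alone (10.0%, 3.76 to 20.5%), against 6.96%, and none met a vehicle peak alone, against 2.56%. None of these shares was split by distance from a start. Within 1 kb of a collagen start lay 5.0% of the collagen enhancers. Within 1 kb of any start lay 10.5% of the enhancers near any gene. Of the 100 closed enhancers, 3 met peaks of both lists (exact binomial interval 0.623 to 8.52%), none a TSA peak alone (up to 3.62%) and 4 a vehicle peak alone. Near any gene, 0.949% of closed enhancers met peaks of both lists, 1.05% a TSA peak alone and 0.457% a vehicle peak alone. The 6 open enhancers with a TSA peak alone lay near COL5A3, COL11A2, COL18A1, COL20A1 and COL16A1, the last with 2. At COL18A1 and at 1 of those near COL16A1, the TSA peak met a vehicle peak elsewhere along its length (scores of 0.0657 in TSA and 0.0727 in vehicle, and of 0.0889 and 0.0459), so the lists differ there in extent. The 4 closed ones with a vehicle peak alone lay near COL9A3, COL10A1, COL16A1 and COL19A1. At COL9A3 the vehicle peak of 0.0463 met a TSA peak of 0.0475 beyond the enhancer, which is again a difference in extent. At COL19A1 a closed enhancer with a fold of 2.75 also lay on the start site itself.

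Open and closed collagen enhancers differed in base composition as other enhancers do. The median content of G and C was 58.8% in open and 46.7% in closed collagen enhancers, and it was 58.4% and 46.7% near any gene. In the 200 bases around the summit, 10 of 60 open enhancers held a GC box (16.7%) against 22.6% near any gene, and 4 of 100 closed ones did (4%) against 4.10%. An AP-1 site was found in 12 of 160 (7.5%), against 7.57% near any gene. No open collagen enhancer held an ETS motif, against 7.53% near any gene, and 2 of 100 closed ones did, against 0.916%. The motif shares were not split by distance from a start site. By place, 100 of 160 lay in introns, 45 between genes, 10 in promoters and 5 in exons.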

How the data were processed

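WHG-STARR-seq, ATAC-seq and mRNA-seq were performed in LNCaP cells, with 18 libraries in all. For the enhancers, Bowtie (hg19) and Picard were used by the authors, who pooled the output replicates before running MACS2 with the input as control. The deposited enhancer lists give a fold as a ratio of output over input, a −log10 p-value and q-value, and, for open enhancers, a DNase I score. For ATAC-seq, the authors aligned with Bowtie, trimmed with cutadapt, aligned the rest with Bowtie2, and called peaks with Fseq once per condition on 3 pooled libraries, and each deposited list carries its Fseq score. For mRNA-seq, the authors aligned with TopHat, counted reads per gene and fitted edgeR, and the deposited table gives an average log2 CPM per gene. A deposited table of ATAC-seq sites gives the same average per site. The versions of these tools were not given in the sources used here. Both tables also hold the authors' TSA against vehicle comparison (log2 fold change, likelihood ratio, p-value and, for sites, q-value), which was not used. The files used have 0 values per library and 0 unmapped columns of per-sample values.

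Start sites were those of GENCODE basic transcripts on GRCh37 (release 44, lifted). Of 22336 genes, 18430 matched by symbol and 2322 by a RefSeq synonym, which gave 57831 start sites. Of the others, 1493 had no match and 91 named genes at more than 1 place. Chromosome lengths of GRCh37 held all enhancer coordinates. Output fragments k and scaled input λ were solved from fold = (k + 1)/(λ + 1) and the Poisson p-value, with a largest error of 0.000146 in −log10 p. Intervals are exact binomial or Poisson at 95%, and cover counting error only. No test was run, since each condition has 1 pooled value. Calculations used scipy 1.17.1, pandas 2.3.3, numpy 2.4.6 and matplotlib 3.10.9 under Python 3.11.15, and were tested on simulated data. Named genes are those at 1 CPM or more, those with a start-site peak, the 6 with the most enhancers, and those near the 5 strongest open and 5 strongest closed enhancers, with the remaining members named in the account of their class. Some items are not reported here. The members and lists were chosen with earlier results of these data known.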

Additional observations from a re-analysis of the deposited data

How the results depend on the processing

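No paired analysis was possible because the files hold pooled values and no test was run, and for the same reason no replicate could be left out. Of 50 alternative values, 36 stayed within 1.5 times the count or inside the interval and 14 moved. The background was not recomputed for them, so whether a difference from it would reverse was not examined. With a distance of 20 kb, 77 enhancers remained, with 19 TSA-only, 32 shared and 6 vehicle-only ATAC-seq peaks. With 100 kb there were 305 enhancers and 58 TSA-only, 114 shared and 34 vehicle-only peaks. With only the peaks above the median score of each list, there were 17 TSA-only, 32 shared and 6 vehicle-only peaks. In that setting, genes with a start-site peak numbered 9 in the TSA list only, 9 in both and 1 in the vehicle list only (COL6A1), and COL4A1 and COL4A2 were not among them. COL4A1, COL4A2, COL8A1 and COL11A1 stayed TSA-only at start sites with a wider window, with the most upstream start site and with the TSA list cut to the length of the vehicle list. The open share of enhancers lay between 32.2% and 45.5% over all alternatives, the first without COL18A1, an alternative chosen after seeing the data. The median fold lay between 2.76 and 2.85. The share of TSA peaks found in that list alone lay between 32.6% and 37.3%. At least 0.5 CPM was reached by 25 genes and at least 2 CPM by 18. The TSA and vehicle differences here come from pooled lists and were not set against replicate error, and weak peaks near the lowest score of a list can drop out of it by a small change in depth.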

Other observations

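Some genes with related names fall outside the naming rule of the chain genes. EMID2, an older symbol of the collagen gene COL26A1, stood at 2.91 log2 CPM, with a start-site peak in both ATAC-seq lists and 2 enhancers within 50 kb, 1 of them open. COLQ, the collagen-like tail of acetylcholinesterase, stood at 3.72 log2 CPM, with 7 enhancers, all closed, and no start-site peak. COL6A4P1, a pseudogene, stood at -2.40 log2 CPM with a start-site peak in both lists, and COL6A4P2 at -2.55 with none.

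Members of the collagen biosynthesis and receptor list also had start-site peaks in the TSA list alone. These were 4 of 41 genes, namely LOX, a cross-linking oxidase, PCOLCE2, an enhancer of propeptide cleavage, and the receptors DDR1 and MRC2, against 5.73% of all genes. None of the 41 had a start-site peak in the vehicle list alone, against 1.33% of all genes, and 25 had peaks in both lists, against 54.8%.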
